A study of Mus musculus with 16 samples.

Results

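Mast cells and basophils were rare among the cells captured from B16 melanomas in these data. Their members were chosen on raw counts of unique molecular identifiers (UMIs, each a captured RNA molecule). Barcodes entered with 200 or more genes and no more than 10% of UMIs from mitochondrial genes, and are called kept. It was a member, called a gated cell here, if Cpa3, Mcpt8 and Ms4a2 summed to at least 3 UMIs, Cd3d and Cd3e were at 0, and C1qa, C1qb and C1qc summed to at most 5. Of 116552 barcodes 99357 were kept, and 64 of these met the rule, or 0.0644% (exact 95% binomial interval 0.0496% to 0.0822%, which like the other intervals given covers counting error only).

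Mast cells and basophils are granulocytes that carry the high-affinity receptor for IgE, store histamine and need the transcription factor Gata2. Mast cells mature in tissues under the Kit ligand stem cell factor and fill their granules with chymases, tryptases and carboxypeptidase A3 (Cpa3). Basophils mature in the marrow, circulate, and in the mouse carry the granule protease mMCP-8, encoded by Mcpt8; they are known for making interleukin-4 and interleukin-6 after activation. Ms4a2 encodes the beta chain of the IgE receptor.

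The samples were tumours grown under the skin of C57BL/6J mice from 1000000 cells of the Bro4.1 B16 melanoma line, either control cells or cells lacking B2m, the light chain of MHC class I. The labels attach the genotype to the animal, but the study's design assigns the loss of B2m to the tumour line, and the design was followed. Mouse ages were not found in the labels. All mice received an antibody into the peritoneum on days 6, 9 and 12, either 100 µg of agonistic anti-CD40 or rat IgG2a isotype control, and tumours were taken on day 14, so no untreated tumour was included. Cells bound by CD45 magnetic beads were hashtagged by mouse, pooled within a group and run with 3′ chemistry on 8 lanes: 2 each for control tumours with isotype, control tumours with anti-CD40, B2m-null tumours with isotype and B2m-null tumours with anti-CD40. The 2 lanes of control tumours with anti-CD40 are technical replicates and counted as 1 pool, which leaves 7 pools.

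The lanes held 10656 to 15652 kept barcodes with median depths of 1792 to 5103 UMIs. The gated cells were shallower, with a median of 1305.5 UMIs against 3054 in all other kept barcodes and 3809 in 16437 T-like barcodes (Cd3d plus Cd3e at least 3). No C1q limit was set for T-like barcodes, and no doublets were removed from them. Any 2 lanes shared 41 to 92 barcode sequences, and no gated barcode occurred in a second lane. Of the 64 cells 31 had no hashtag assignment, or 48.4%, against 17.7% of all kept barcodes; at each lane's own rate 15.8 would be unassigned. The lane of B2m-null tumours with isotype, replicate 1, had 73.8% of its barcodes unassigned and 11 of its 12 gated cells. One hashtag doublet was among the gated cells and was not removed, since the rule does not use hashtags.

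The proteases that tell the cell types apart lie close together in the genome. In RefSeq for GRCm38.p6, chromosome 14 holds 15 protein-coding genes from Cma1 to Gzmb (chr14:55941451-56262334), all of them chymase, cathepsin G or granzyme genes. Cma1 (chr14:55941451-55944675) and Mcpt4 (chr14:56059744-56062310) encode the mast cell chymases mMCP-5 and mMCP-4. Mcpt8 (chr14:56082163-56085499) is the next protease gene after Mcpt4. The tryptase genes Tpsab1 (chr17:25343245-25345562) and Tpsb2 (chr17:25366308-25368096) lie on chromosome 17 with Prss34 (chr17:25298394-25300168), a basophil protease. Cpa3 lies at chr3:20215616-20242209 and Ms4a2 at chr19:11615517-11623790.

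Upstream sequence of 4 of these genes is shown 5′ to 3′, because Cpa3 and Ms4a2 are gate genes and Cma1 and Mcpt4 separate the cells. RefSeq windows reach 250 bases before the start. Bases inside an annotated gene span or exon were left out, 28 for Cpa3, 71 for Ms4a2 and 3 for Mcpt4. Those of Cpa3 and Ms4a2 lie inside the RefSeq span of the gene itself. For Mcpt8 the whole window lay inside its RefSeq gene span, and none of it is shown. Capitals mark AGATAA or TGATAA, letters that GATA factors bind, searched on both strands (TTATCT or TTATCA on the other). Both forms share the letters GATAA.
Cpa3, chr3:20242210.0-20242431.0, minus strand: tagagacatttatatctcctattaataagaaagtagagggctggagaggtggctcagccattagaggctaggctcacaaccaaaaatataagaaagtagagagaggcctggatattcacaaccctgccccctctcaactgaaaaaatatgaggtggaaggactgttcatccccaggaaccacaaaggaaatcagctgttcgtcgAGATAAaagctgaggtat
Ms4a2, chr19:11623791.0-11623969.0, minus strand: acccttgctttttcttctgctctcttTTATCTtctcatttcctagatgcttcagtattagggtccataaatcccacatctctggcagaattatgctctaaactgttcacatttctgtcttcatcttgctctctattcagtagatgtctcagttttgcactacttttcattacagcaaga
Cma1, chr14:55944676.0-55944925.0, minus strand: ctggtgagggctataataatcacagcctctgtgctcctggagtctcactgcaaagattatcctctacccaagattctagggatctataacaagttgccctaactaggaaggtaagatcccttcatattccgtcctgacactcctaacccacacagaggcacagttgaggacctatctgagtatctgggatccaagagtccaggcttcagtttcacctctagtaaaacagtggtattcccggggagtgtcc
Mcpt4, chr14:56062314.0-56062560.0, minus strand: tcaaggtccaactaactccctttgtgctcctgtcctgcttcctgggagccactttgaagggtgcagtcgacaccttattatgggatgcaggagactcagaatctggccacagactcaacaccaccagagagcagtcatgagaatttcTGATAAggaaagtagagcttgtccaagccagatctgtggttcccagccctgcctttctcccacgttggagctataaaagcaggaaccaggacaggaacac
The Cpa3 sequence held AGATAA 46 bases before the start. The Ms4a2 window held AGATAA 3 times, on the reverse strand at 224 and 37 bases and on the forward strand at 11 bases before the start. Only the first of these lies in the stretch shown. The others lie in the 71 bases left out, inside the RefSeq span of Ms4a2 itself. The Mcpt4 sequence held TGATAA at 103 bases. Neither form was found in the full windows of Mcpt8 and Cma1. Over whole windows of 250 bases, 18.8% of 27025 RefSeq genes held either form. Of the 20 genes highest in gated over other cells, 17 had a window and 7 of those, or 41.2%, held a motif. The 20 include the gate genes Cpa3, Mcpt8 and Ms4a2 and the proteases Cma1, Mcpt4 and Tpsb2. Cpa3, Ms4a2 and Mcpt4 are among those with a motif, so nothing is read from this share. Of the genes highest on one side over the other, 1 of 9 mast-side genes (11.1%), 1 of 9 genes of the whole basophil side (11.1%) and 1 of 10 genes of the basophil side with Gata2 (10.0%) held one. A match is a string of letters and not a measured binding site.

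The label came with 4 marker genes. Cpa3, Mcpt8 and Ms4a2 chose the cells, so their detection is a description and no check of the label. Only Gata2 lies outside the rule. Cpa3 was detected in 51 of the 64 cells, Mcpt8 in 28, Ms4a2 in 31 and Gata2, which the rule did not use, in 48. Gata2 or Hdc, the enzyme that makes histamine, was detected in 56. In all other kept barcodes Gata2 was detected in 0.234% and in T-like barcodes in 0.0973%, at more than double the depth. Of the 64, 29 cells passed on a single gate gene, 24 held 2 of the 3 and 11 held all 3.

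Each cell was placed by its proteases. A cell was on the mast side when Cma1, Mcpt4, Tpsb2 and Tpsab1 together had more UMIs than Mcpt8, and on the basophil side when Mcpt8 had more. This put 35 cells on the mast side, 23 on the basophil side and 6 on neither, all 6 from isotype lanes. Among these 6, the cells of 1159, 1658 and 11670 UMIs had no UMI of Mcpt8 or the mast proteases. They held Gata2 (3 to 4 UMIs), Hdc (3 to 18), Osm (12 to 35) and Ccl3 (42 to 67), genes given below for the basophil side. The rule on Mcpt8 leaves such cells off the basophil side. Most cells held transcripts of one kind only: 31 of the 35 mast-side cells had no Mcpt8 UMI (the other 4 were all of the first isotype lane of control tumours), and 7 of the 64 cells held both kinds.

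**Figure D1:**
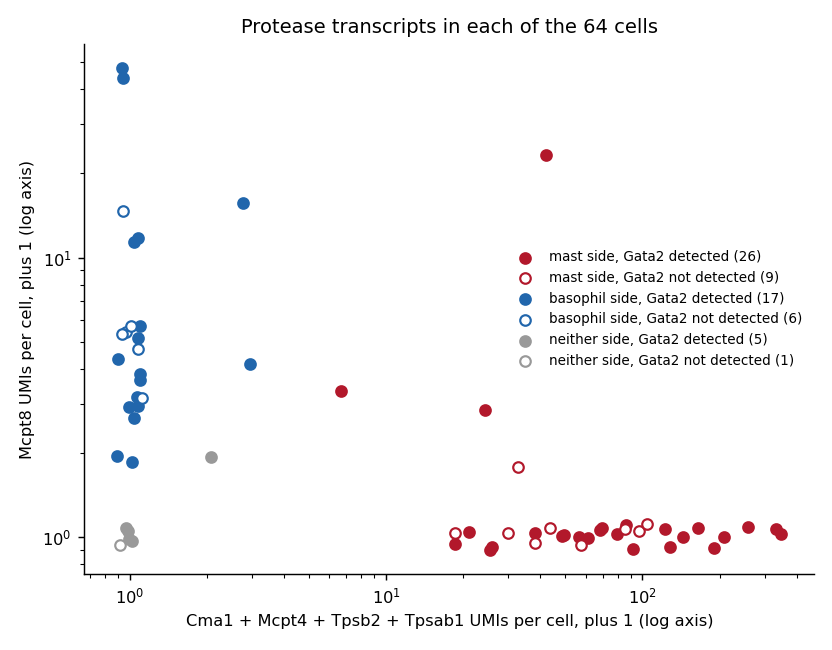
UMIs of Mcpt8 (vertical, plus 1, log axis) against the summed UMIs of Cma1, Mcpt4, Tpsb2 and Tpsab1 (horizontal, plus 1, log axis) in each of the 64 gated cells, with a small random shift so that points do not hide each other. Filled points have a Gata2 UMI. The 35 mast-side cells spread along the horizontal axis and the 23 basophil-side cells along the vertical axis, with 7 cells holding both kinds of transcript.

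The label did not hold for 5 of the 23 basophil-side cells. These cells passed on Mcpt8 alone, with 4 to 15 UMIs each, and had no UMI of Gata2, Hdc, Cpa3, Ms4a2 or Fcer1a in spite of 2755 to 25774 UMIs. All 5 held perforin (Prf1, 6 to 72 UMIs), granzyme B (Gzmb, 9 to 187) and granzyme A (Gzma, 4 to 48). Eomes and Klrg1 were each found in 4, the natural killer receptor gene Klre1 in 4 and Ncr1 in 2. In all 5, Spp1 had 65 to 126 UMIs. None of the 17 basophil-side cells with Gata2 had a UMI of Prf1, Eomes, Klre1 or Ncr1. The 5 cells came from 4 lanes, and 1 was the hashtag doublet. A sixth basophil-side cell without Gata2 was shallow (779 UMIs) and held Cpa3, Ms4a2, Ifitm1 and Ccl3. Together these 6 cells held 62.6% of the basophil-side UMIs. Levels below are therefore given for the 17 basophil-side cells with Gata2, a choice made after the values were seen. Genes such as Spp1, AA467197 and Cd48, which rank among the highest basophil-side genes over all 23 cells, have 9, 4 and 6 UMIs in those 17. Of the 17, 3 held Kit, Cpa3, Gzmb and Ifitm1 together and are described with a further pattern below.

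**Figure D2:**
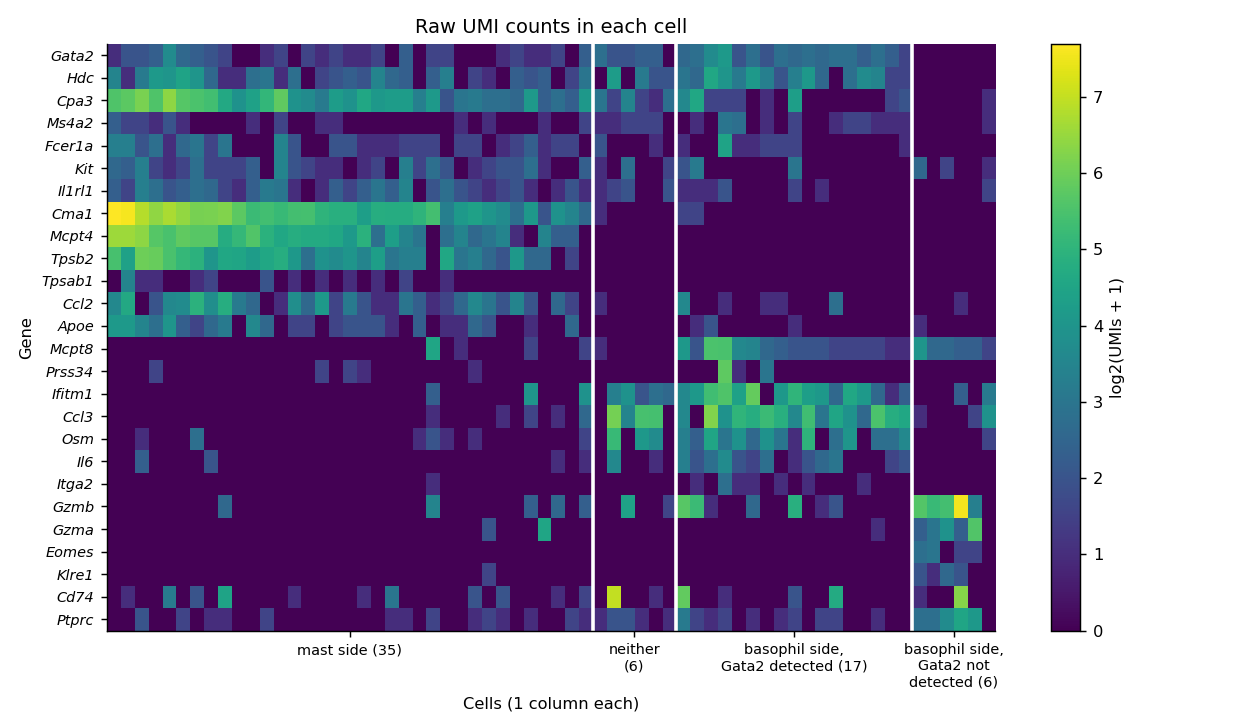
Raw UMIs per cell on a log2(UMIs + 1) scale, with 1 column for each of the 64 cells and 1 row for each gene. Mast-side cells share Cma1, Mcpt4, Tpsb2, Cpa3 and Ccl2. Basophil-side cells with Gata2 share Mcpt8, Ifitm1, Ccl3 and Osm, and 5 of the 6 basophil-side cells without Gata2 hold Gzmb and Gzma.

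The mast side was defined by its proteases, so their levels are a description. Cma1 was detected in all 35 cells, with 3 to 206 UMIs a cell and a median of 31. Mcpt4 had 0 to 94 UMIs (median 23) and was detected in 32 cells. Tpsb2, a tryptase, had 0 to 63 (median 15) and was also detected in 32, whereas the tryptase Tpsab1 was detected in 12 and Tpsg1 in 8. Mcpt1, Mcpt2 and Mcpt9, chymase genes of which the first 2 are known from mucosal mast cells, had no UMI in any gated cell. Cpa3 had 3 to 83 UMIs a cell (median 17).

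Genes outside the rule and the split are given next; they come from the same cells and are a description. Mrgprb1 and Mrgprb2, receptors of the family through which basic peptides and drugs degranulate mast cells, were detected in 27 and 15 of the 35 mast-side cells, and either in 28. Neither was detected in the 17 basophil-side cells with Gata2, so that Mrgprb1 was at least 28.3-fold higher on the mast side (2078 CPM, the summed UMIs of a set scaled to 1000000; floor of 3 UMIs over the 17 cells). Kit, the stem cell factor receptor, was detected in 29 mast-side and 3 basophil-side cells. All 18 basophil-side Kit UMIs came from the first isotype lane of control tumours, and the other 13 basophil-side cells with Gata2 had none. Il1rl1, the interleukin-33 receptor, was detected in 32 and 6, at 2469 and 220 CPM, and in 3 of 13 basophil-side cells without that lane. Serpinb1a, a protease inhibitor, was detected in 29 and 7. Rab27b, which moves granules to the membrane, was detected in 20 and 1. Hs6st2, a heparan sulphate sulphotransferase, was detected in 19 and 1. Mitf, a transcription factor that mast cells need, was detected in 7 and 0 but is also found in other cells of these tumours (74.3 CPM).

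The 17 basophil-side cells with Gata2 had another set. Mcpt8 itself ranged from 1 to 45 UMIs a cell with a median of 3. Prss34 was detected in 3 of them, and 54 of its 62 UMIs came from a single cell of B2m-null tumours with isotype; on the mast side 5 cells held 8 UMIs. Ifitm1, which encodes a membrane protein of the interferon-induced family, was detected in 16 (94.1%, interval 71.3% to 99.9%) with a median of 16 UMIs, against 3 of 35 mast-side cells. Itga2, the integrin recognised by the basophil antibody DX5, was detected in 7 against 1, and in 3 of 11 without the second isotype lane of B2m-null tumours. Cdh1, E-cadherin, was detected in 13 against 0. Itga2b was detected in 9 against 3.

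**Figure D3:**
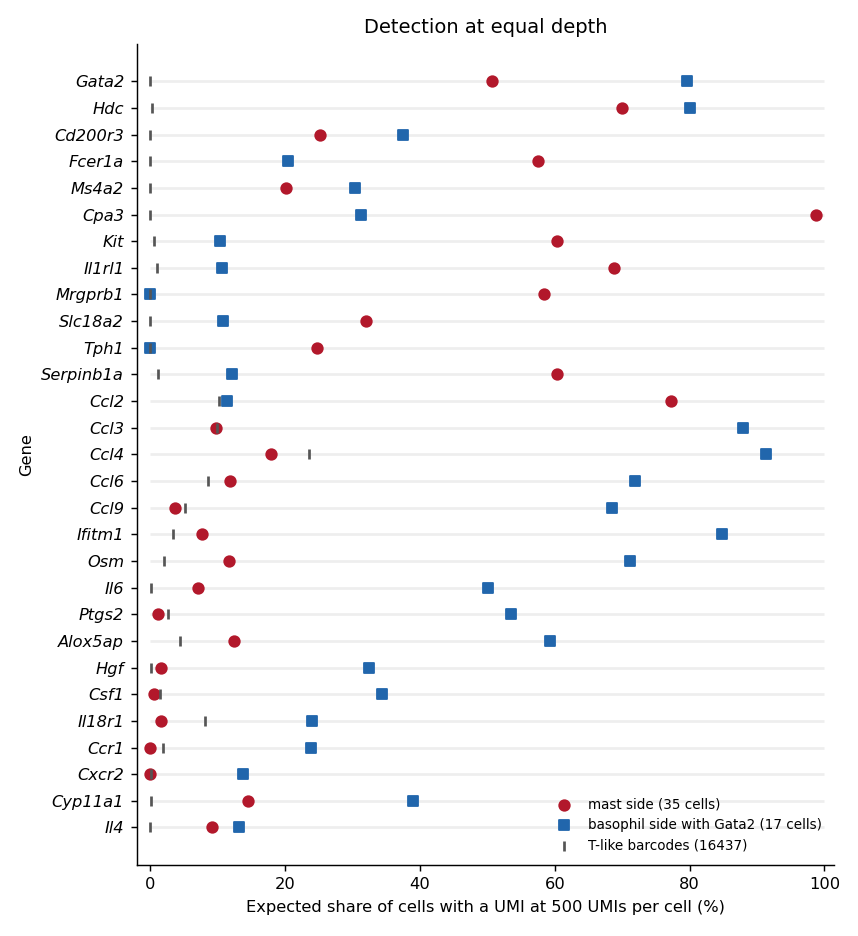
Expected share of cells with a UMI (horizontal, percent) when every cell is thinned to 500 UMIs, for 29 genes (vertical), in the 35 mast-side cells, the 17 basophil-side cells with Gata2 and the 16437 T-like barcodes. Gata2 and Hdc are found on both sides, Kit, Il1rl1, Mrgprb1 and Ccl2 lie to the right for the mast side, and Ccl3, Ccl4, Ifitm1, Osm, Il6 and Ptgs2 for the basophil side.

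The sides differ in depth, with medians of 945 UMIs on the mast side and 1615 in basophil-side cells with Gata2, so detection was also computed with every cell thinned to 500 UMIs. At that depth Kit was expected in 60.4% of mast-side and 10.3% of basophil-side cells, Il1rl1 in 68.8% and 10.6%, and Mrgprb1 in 58.5% and 0%; the basophil-side share of Kit is 0 without the first isotype lane of control tumours. Ccl3 was expected in 9.69% and 87.9%, Ifitm1 in 7.64% and 84.8%, and Osm in 11.6% and 71.2%. The order of the sides was thus the same for these 6 genes as without thinning.

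In the lists of known genes, counts are of genes with at least 10 UMIs on both sides together, 2-fold or more higher in pooled CPM. The lists were chosen with earlier results of these data known, so the counts are a description. Over all 1555 such genes, 16.6% were higher on the mast side and 18.5% on the basophil side with Gata2. Against all 23 basophil-side cells, the shares were 19.4% and 19.8% of 2525 genes. The contrast is the one that split the cells, so nothing is read from these shares. Of 13 mast cell genes, 12 were higher on the mast side and 0 on the basophil side; 4 of them defined the split and Cpa3 was a gate gene. Of 21 basophil genes, 12 were higher on the basophil side and 2 (Cpa3 and Fcer1a) on the mast side. Mcpt8, among the 12, defined the split. The counts were 16 and 1 without the first isotype lane of control tumours. They were 9 and 2 of 18 without the second isotype lane of B2m-null tumours.

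Of the IgE receptor chains, Fcer1a, the alpha chain, was not used by the rule. It was detected in 27 of 35 mast-side and 8 of 17 basophil-side cells, at 1914 and 758 CPM. The basophil-side level of Fcer1a was 339 CPM without the second isotype lane of B2m-null tumours, where 1 cell held 21 of the 31 UMIs, and 1237 CPM without the first isotype lane of control tumours. Ms4a2, a gate gene whose detection helped to choose the cells, was detected in 14 and 11, at 473 and 611 CPM, the latter 928 CPM without the first isotype lane of control tumours. Fcer1g, the gamma chain shared with other Fc receptors, was at 3601 and 2421 CPM, and at 2494 CPM in all other cells. Of 9 genes of the receptor and its signalling with enough UMIs, 3 were higher on the mast side and 0 on the basophil side. These counts were 1 and 1 of 6 without the first isotype lane of control tumours, and 1 and 0 of 8 without the second isotype lane of B2m-null tumours. Both Lyn and Syk, kinases that act just below the receptor, were detected in 5 or fewer cells of each side.

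Histamine and serotonin genes divided differently. Hdc was at 3725 CPM on the mast side and 3644 CPM on the basophil side, in 30 of 35 and 16 of 17 cells. Its basophil-side level was 2259 CPM without the second isotype lane of B2m-null tumours and 5654 CPM without the first isotype lane of control tumours, so the order of the sides depends on the lanes. Slc18a2, the transporter that loads amines into granules, was detected in 19 and 5, and in 1 of 13 basophil-side cells without the first isotype lane of control tumours. Tph1, which starts serotonin synthesis, was detected in 15 and 0, and Slc6a4, the serotonin transporter, in 17 and 1. Among lipid mediator genes, Ptgs2, the inducible cyclooxygenase, was detected in 1 mast-side and 13 basophil-side cells. Alox5ap, which presents arachidonate to 5-lipoxygenase, was at 309 and 1468 CPM, 4.75-fold higher on the basophil side, while Alox5 itself was at 206 and 342 CPM. Alox5ap was at 158 CPM on the mast side without the first isotype lane of B2m-null tumours, and at 2297 CPM on the basophil side without the first of control tumours. Ltc4s, leukotriene C4 synthase, and Ptgs1 were detected in at most 2 cells of either side. Cyp11a1, the enzyme that starts steroid synthesis from cholesterol, was detected in 10 and 14 cells, against 0.225% of T-like barcodes.

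Of 9 cytokine genes, 6 were 2-fold higher in pooled CPM on the basophil side and 1 on the mast side, and of 10 chemokine genes 6 and 3. Without the first isotype lane of control tumours the counts were 6 and 0 of 7 cytokine genes and 4 and 4 of 9 chemokine genes. Some of these calls rest on few cells: Cxcl10 had 21 UMIs in 1 basophil-side cell against 3 mast-side cells, and thinned to 500 UMIs its share was 3.77% there and 4.57% on the mast side. Cxcl2 was detected in 4 basophil-side cells. Ccl3 and Ccl4, chemokines for monocytes and T cells, were each detected in at least 16 of the 17 basophil-side cells, with medians of 23 and 29 UMIs a cell. Their levels were 10175 and 12230 CPM there, 206 and 1214 CPM on the mast side, and 356 and 897 CPM in all other cells. Without the first isotype lane of control tumours, Ccl3 was at 16432 and 59.5 CPM on the basophil and mast sides and Ccl4 at 17624 and 447 CPM. Osm, an interleukin-6 family cytokine, was detected in 15 of 17 against 7 of 35, at 3865 and 309 CPM; the former was 6096 CPM without the first isotype lane of control tumours. Il6 was detected in 13 of 17 (76.5%, interval 50.1% to 93.2%) against 4 of 35, at 1516 and 185 CPM; in T-like barcodes 1.16% held a UMI. The mast-side level of Il6 was 112 CPM without the second isotype lane of B2m-null tumours. Hgf, hepatocyte growth factor, was detected in 11 against 1, and Csf1, the macrophage growth factor, in 9 against 1. Ccl6 and Ccl9 were at 7167 and 2421 CPM on the basophil side, but Ccl6 also stood at 1337 CPM in other cells. Of the 293 basophil-side Ccl6 UMIs, 240 came from the second isotype lane of B2m-null tumours, without which Ccl6 was at 1995 CPM. Without the first isotype lane of control tumours, Ccl6 was at 12324 and Ccl9 at 3755 CPM on the basophil side. On the mast side, Ccl6 was at 391 CPM and Ccl9 at 185 CPM, and at 184 and 52.6 CPM without the first isotype lane of B2m-null tumours.

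Ccl2, the monocyte chemokine, went the other way. It was detected in 31 of 35 mast-side cells, with a median of 5 UMIs, and in 5 of 17 basophil-side cells, at 5247 and 489 CPM (10.7-fold). The basophil-side level was 133 CPM without the first isotype lane of control tumours. Other kept barcodes held 1895 CPM, and 30.8% of T-like barcodes held a UMI. The macrophage and monocyte marker lists stood at 2876 and 2491 CPM in T-like barcodes. What part of their Ccl2 comes from T cells was not tested. Thinned to 500 UMIs the share was 77.2% on the mast side, 11.4% on the basophil side and 10.2% in T-like barcodes. Il4 was detected in 6 mast-side and 6 basophil-side cells and in 0.170% of T-like barcodes, and Il13 in 1 and 2. No UMI of Il3, Il5, Il9, Il10, Csf2 or Tslp was found in the 64 cells.

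Receptors also divided. Il18r1 and Il18rap, the chains of the interleukin-18 receptor, were each detected in 9 of 17 basophil-side cells and in 1 and 0 mast-side cells. Ccr1 was detected in 11 and 0, and Cxcr2 in 7 and 0. Without the second isotype lane of B2m-null tumours, Il18r1 was detected in 3 and Cxcr2 in 2 of 11 basophil-side cells. Lilrb4a, an inhibitory receptor, was 4.89-fold higher on the basophil side (1712 against 350 CPM; 1054 on the basophil side without the second isotype lane of B2m-null tumours), and Fcgr2b, the inhibitory receptor for IgG, was 4.28-fold higher (440 against 103 CPM). Il3ra, the interleukin-3 receptor, was detected in 6 against 1, and Csf2rb, the beta chain it shares, in 14 against 10. Cd200r3, an activating receptor of basophils and mast cells, was on both sides, in 18 mast-side and 11 basophil-side cells. Of 10 cytokine receptor genes 3 were higher on the mast side and 6 on the basophil side, and of 9 chemoattractant and inhibitory receptor genes 0 and 6. Without the second isotype lane of B2m-null tumours the former were 2 and 1 of 6. Without the first isotype lane of control tumours the former were 2 and 4 of 6 and the latter 0 and 5 of 5. Ptgdr2 and Hrh4 had no UMI.

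Cd40, the target of the treatment antibody, had a UMI in 1 of the 64 cells (1.56%, interval 0.0396% to 8.40%), a basophil-side cell, and its level in all other kept barcodes was 44.3 CPM. This share was below the 9.16% of T-like barcodes with a UMI, and at these depths it does not separate absence from a low level. Of the MHC class II genes, Cd74, H2-Aa, H2-Ab1 and H2-Eb1 were detected in 11, 6, 7 and 6 of 35 mast-side cells and in 4, 3, 3 and 2 of 17 basophil-side cells. Cd74 was detected in 46.7% of the deeper T-like barcodes; thinned to 500 UMIs, the shares were 21.5% on the mast side, 14.5% on the basophil side and 25.1% in T-like barcodes. Of 8 antigen presentation and costimulation genes with enough UMIs, 0 were higher on the mast side and 3 (Cd74, H2-Ab1 and H2-Eb1) on the basophil side. Without the first isotype lane of control tumours, which held all but 1 of the 86 basophil-side Cd74 UMIs, 4 of 7 were higher on the mast side and 0 on the basophil side. Without the first anti-CD40 lane of B2m-null tumours, 0 of 8 were higher on the mast side and 1 on the basophil side. A cell on neither side held 127 of the Cd74 UMIs. B2m and H2-K1 were detected in 35 and 30 mast-side cells. Cd80, Cd86, Icosl and Tnfsf4 were each detected in at most 1 cell of either side.

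Among transcription factors, Gata2 was at 1399 CPM on the mast side and 2495 CPM on the basophil side, where its detection defined the set, and at 0.723 CPM in other cells. Gata1 was detected in 2 cells of each side. Egr1, an early response gene, was at 4609 and 4427 CPM, against 350 CPM in other cells; the basophil-side level was 6802 CPM without the first isotype lane of control tumours. Cebpa, a factor tied to the basophil branch, was detected in 1 and 6 cells and Runx1 in 7 and 12. Of 12 interferon response genes 6 were 2-fold higher on the basophil side, among them Ifitm1 (11.9-fold); without the first isotype lane of control tumours, 2 of 4 were. Without the second isotype lane of B2m-null tumours Ifitm1 was at 4743 CPM on the basophil side and 741 CPM on the mast side, and without the first isotype lane of control tumours it had no UMI on the mast side. Isg15 is another of the 6 (2.97-fold), through 15 UMIs of 1 cell; without the first isotype lane of control tumours it was at 0 CPM there and 59.5 CPM on the mast side, and without the second isotype lane of B2m-null tumours it was at 565 CPM there. It was detected in 5 mast-side cells, and thinned to 500 UMIs its share was 7.06% on the mast side and 3.05% on the basophil side. Ifit1 and Ifit3 were each detected in 1 of the 17 basophil-side cells. Mki67, a gene of dividing cells, was detected in 2 mast-side cells and in no basophil-side cell with Gata2, against 29.2% of the deeper T-like barcodes. The cell cycle list of 10 genes stood at 1790 CPM on the mast side and 881 CPM on the basophil side. It stood at 1972 CPM in other cells and 3274 CPM in T-like barcodes. The survival kinase Pim1 was at 185 and 1394 CPM (7.53-fold).

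A further pattern cut across the split. In 8 cells Kit, Cpa3, Gzmb and Ifitm1 were all detected, with 2 to 8 Kit UMIs, 2 to 51 Gzmb UMIs and 4 to 32 Ifitm1 UMIs. Of these, 3 were on the mast side, 3 on the basophil side and 2 on neither, and mast protease UMIs ranged from 0 to 41. They had no UMI of Gzma, Prf1, Eomes or Klre1. Mcpt8 was detected in 6. The 3 on the basophil side held Gata2, so they are among the 17 cells whose levels are given above. They had 10501, 2890 and 2188 UMIs, of 40884 in the 17, and all 18 Kit UMIs of that set. In the cells of 2890 and 2188 UMIs, Cpa3 had 19 and 23 UMIs against 3 of Mcpt8. Their part in the basophil-side levels was not tested. Of the 8 cells, 7 came from the first isotype lane of control tumours, which held 17 gated cells, and 1 from the first isotype lane of B2m-null tumours. None was a hashtag doublet and 6 had no assignment. Of the other 32 mast-side cells, 0 held Ifitm1 and 2 held Gzmb. Of the 7 cells with both Mcpt8 and mast proteases, 6 came from the same lane of control tumours. This combination was picked after the values were seen, and its link to 1 lane was not tested.

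The genes highest in all gated cells over all other kept barcodes included several that the rule did not use. Among the 20 leading genes were Mcpt4, Tpsb2, Cma1, Mrgprb1, Fcer1a, Tph1, Slc6a4, Slc18a2, Cyp11a1, Cd200r3, Hdc, Il1rl1 and Kit. Fcer1a was at 731 CPM against 0.0797 CPM in other cells, and Hdc at 2068 against 8.66 CPM. Rab44, a large Rab GTPase, was at 171 against 1.80 CPM. Such ratios follow from choosing the cells and carry no test.

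Markers of other cell types were measured in the same cells. No B-cell marker (0 of 5 genes) had a UMI in any gated cell. Of the eosinophil list 2 of 7 genes were detected, in 3 cells, and Epx, Prg2 and Siglecf were at 0. Of the neutrophil list 2 of 5 genes were detected, in 10 cells: Cxcr2 in 9, of which 7 were basophil-side cells with Gata2, and Csf3r in 1, with S100a8, S100a9 and Retnlg at 0. All 5 monocyte genes were detected, in 7 mast-side cells (up to 34 summed UMIs) and 8 basophil-side cells with Gata2 (up to 28). Of the platelet list, Itga2b and Pf4 were detected, in 5 mast-side and 10 basophil-side cells with Gata2, and Ppbp and Gp9 were at 0. Of the endothelial list, Pecam1 and Kdr were detected, in 1 and 6, and Cdh5 and Egfl7 were at 0. The T-cell list was detected in 2 mast-side cells, 2 basophil-side cells with Gata2 and 3 without, with Cd3d and Cd3e at 0 by the rule. The dendritic cell list was detected in 2, 1 and 1 of these and in 1 cell of neither side, with up to 17 summed UMIs in a mast-side cell and 27 in a basophil-side cell without Gata2, and Xcr1 was at 0. Of the plasmacytoid list, Bst2 was detected in 10 mast-side cells, and Siglech and Ccr9 were at 0. The list of type 2 innate lymphoid cells was detected in 34 of 35 mast-side cells and 10 of 17 basophil-side cells with Gata2; it holds Il1rl1, found in 32 and 6, while Gata3 was at 0 in both. The progenitor list was detected in 29 and 3; it holds Kit, found in 29 and 3, and Cd34, found in 9 and 0, while Mpo and Elane were at 0. The fibroblast list was detected in 3 cells, with Col1a1 and Col1a2 at 0. The part of RNA from these cell types in the levels above was not tested. Of the melanoma list 3 of 5 genes were detected, in 3 cells with at most 1 UMI each, and Pmel was at 0. Summed macrophage markers ranged from 0 to 19 UMIs on the mast side (median 3) and from 0 to 8 in basophil-side cells with Gata2 (median 1), and all 8 genes of the list were detected. Apoe, one of them, was at 2799 CPM on the mast side, 122 CPM on the basophil side (75.3 CPM without the second isotype lane of B2m-null tumours) and 2072 CPM in other cells; the part of macrophage RNA in the mast-side level was not tested. Of the 5 natural killer markers, summed UMIs were 0 to 52 in the basophil-side cells without Gata2 (median 16.5) and at most 1 in those with Gata2. On the mast side 2 cells held any, with 23 UMIs at most.

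The share of gated cells was compared over pools, for which the rule used no condition. In control tumours with isotype, 17 of 15652 (0.109%) and 5 of 10656 (0.0469%) kept barcodes were gated. With anti-CD40, the single pool of control tumours held 5 of 26490 (0.0189%). In B2m-null tumours with isotype the shares were 12 of 12139 (0.0989%) and 11 of 11786 (0.0933%). With anti-CD40 they were 10 of 10707 (0.0934%) and 4 of 11927 (0.0335%). These shares count the 5 basophil-side cells for which the label did not hold, which came from isotype and anti-CD40 lanes. Among them is the only gated cell of the second lane of control tumours with anti-CD40. The ranges of the 2 treatments overlapped. The mean over pools was 0.0486% with anti-CD40 (n = 3) and 0.0869% with isotype (n = 4), a difference of -0.0383 percentage points (two-sided exact permutation within tumour type, p = 0.278, adjusted 0.667 over 3 tests, of which the last, on the balance of the sides, has a single anti-CD40 pool). With 18 arrangements the smallest p possible was 0.0556, so this test could not reach 0.05.

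B2m-null pools had a mean of 0.0798% (n = 4) against 0.0581% in control pools (n = 3), a difference of 0.0216 percentage points (exact permutation p = 0.444, adjusted 0.667). Here too the smallest exact permutation p possible was 0.0556, so neither difference could pass 0.05 in this test. The isotype pools alone spanned 0.0469% to 0.109%. By hashtag, the 32 assigned gated cells came from 14 of 16 mice, with 0% to 0.139% of each mouse's barcodes gated, and the anti-CD40 difference over mice was -0.00658 percentage points (exact permutation p = 0.781). That value leaves out the 31 unassigned cells and 1 doublet, and in the first isotype pool of B2m-null tumours it rests on 1 of 12 gated cells, so that its 3 mice stood at 0%, 0% and 0.0861% against 0.0989% for the pool. Another alternative kept only barcodes of at least 1500 UMIs and thinned them to that depth. It left out all shallower cells, and the gated median was 1305.5 UMIs. The mean was then 0.0172% with anti-CD40 and 0.0279% with isotype, a difference of -0.0107 percentage points (exact permutation p = 0.5). The B2m-null difference was 0.000761 (exact permutation p = 0.944). With at least 5 gate UMIs the differences were -0.0151 and 0.0120 percentage points (exact permutation p = 0.611 and 0.667). Without the basophil-side cells lacking Gata2, left out after seeing the data, they were -0.0351 and 0.0209 percentage points (exact permutation p = 0.333 and 0.5). The mice of a pool and its lane cannot be told apart.

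**Figure D4:**
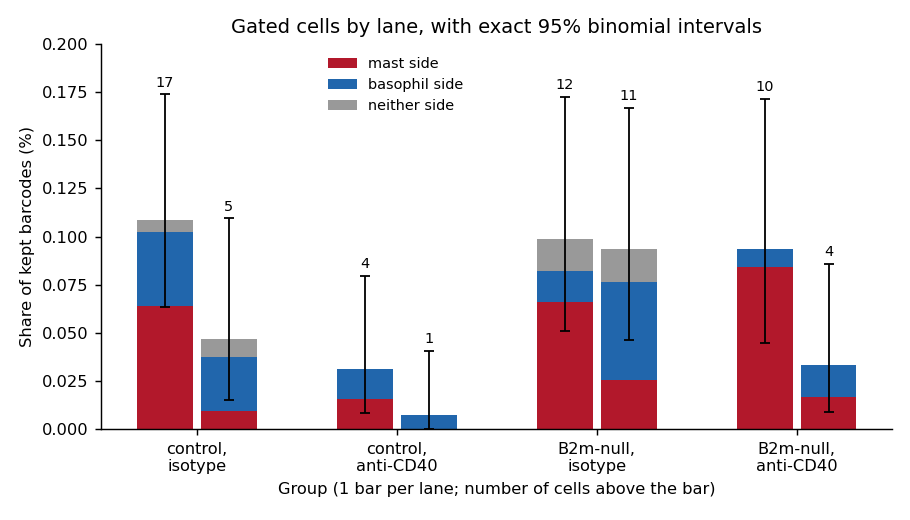
Share of kept barcodes in the gate (vertical, percent), with 1 bar for each of the 8 lanes by group, coloured by side, with exact 95% binomial intervals and the number of gated cells above each bar. The bars range from 1 to 17 cells, and the ranges of isotype and anti-CD40 lanes overlap. The interval of the lane with 1 cell lies below that of the lane with 17, but the intervals cover counting error only and do not compare treatments. That 1 cell is among those for which the label did not hold. The 2 bars of control tumours with anti-CD40 are 1 pool.

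The balance of the sides rested on few cells. The mast side held 11, 2, 11 and 11 cells in control tumours with isotype, control tumours with anti-CD40, B2m-null tumours with isotype and B2m-null tumours with anti-CD40. The basophil side held 9, 3, 8 and 3, and 2, 0, 4 and 0 cells were on neither side. Those on neither side that held Gata2, Hdc, Ccl3 and Osm count in the totals but not on the basophil side. In the 4 pools with at least 10 gated cells, basophil-side cells made up 35.3% of the 17 in control tumours with isotype, and 16.7% of 12 and 54.5% of 11 in B2m-null tumours with isotype. In B2m-null tumours with anti-CD40 they made up 10.0% of 10. These shares include the basophil-side cells without Gata2. Without them, the isotype shares were 26.7% of 15, 0% of 10 and 54.5% of 11, and the anti-CD40 pool stayed at 10.0%, inside that range. The 0% also leaves out the shallow cell of 779 UMIs described above, which held Cpa3, Ms4a2, Ifitm1 and Ccl3. The difference between the anti-CD40 pool and the isotype mean was -25.5 percentage points with the basophil-side cells lacking Gata2 and -17.1 without. With 1 anti-CD40 pool, from B2m-null tumours, set against isotype pools of both tumour types, it is given as a value only.

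Levels within each side are given by lane without a test, since no pool held 20 gated cells. On the mast side, Mcpt4 stood at 14262 and 12820 CPM in control tumours with isotype (10 and 1 cells) and at 21356 CPM with anti-CD40 (2 cells). In B2m-null tumours it stood at 11007 and 22940 CPM with isotype (8 and 3 cells) and at 27357 and 34039 CPM with anti-CD40 (9 and 2 cells). The anti-CD40 lanes were at the upper end, and 1 isotype lane exceeded the lowest of them. Cma1 ranged from 18028 to 56777 CPM over the isotype lanes and from 40650 to 65398 CPM over the anti-CD40 lanes, with overlap. Cpa3 ranged from 14992 to 22200 and from 12636 to 21314 CPM, and did not separate them. Ccl2 stood at 3532, 7326, 3226 and 740 CPM in the isotype lanes and at 6763, 9998 and 8577 CPM in the anti-CD40 lanes, or 3118 and 8725 CPM pooled, and the isotype lane with 1 mast-side cell lay above the lowest anti-CD40 lane. All 3 mast-side cells with Ifitm1 came from the first isotype lane of control tumours. Among 787 genes with at least 10 mast-side UMIs, 3.18% were higher and 0.889% lower in all anti-CD40 lanes than in all isotype lanes. How many genes would separate so by lane labels alone was not tested, and nothing is read from these shares. Cd200r3 and Alox5, picked after their values were seen, were among the higher. For both, 1 of the isotype lanes held a single mast-side cell, of 546 UMIs. Cd200r3 ranged from 0 to 493.3 CPM over isotype lanes and from 534 to 769 CPM over anti-CD40 lanes on 23 UMIs in all. Alox5 ranged from 0 to 133 and from 268 to 439 CPM on 10 UMIs in all.

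On the basophil side with Gata2, lanes held 1 to 6 cells. Mcpt8 ranged from 1315 to 7402 CPM over 3 isotype lanes and from 2745 to 5000 CPM over 3 anti-CD40 lanes. Ccl3 ranged from 2412 to 31446 and from 10920 to 21562 CPM, and the lowest value came from the lane in which 1 cell of 10501 UMIs made up most of the depth. Il6 was detected in 10 of 13 isotype cells and 3 of 4 anti-CD40 cells. The groups overlapped for each of these genes.

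**Figure D5:**
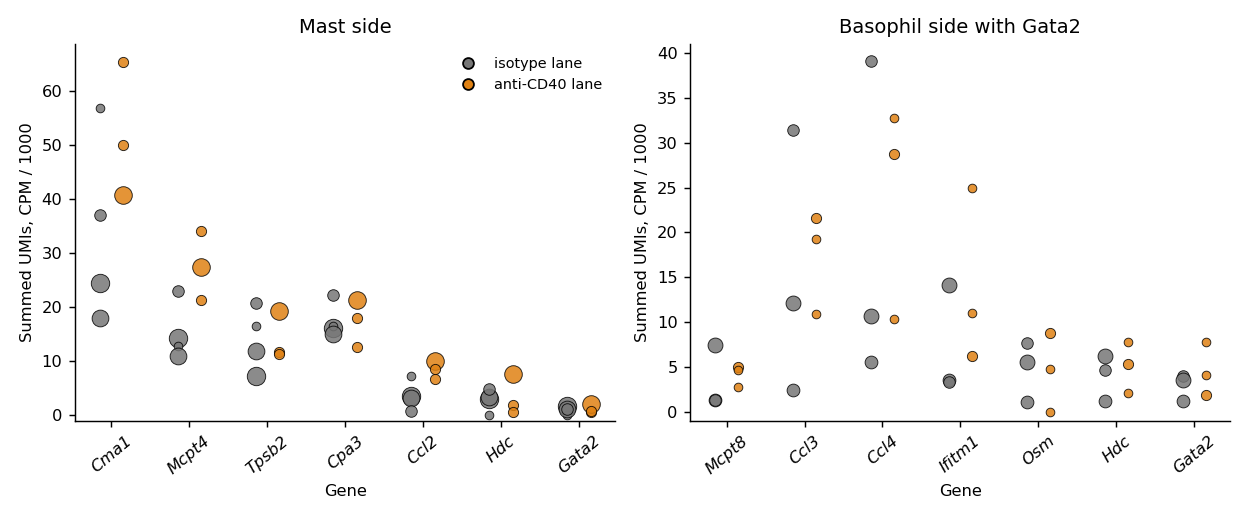
Summed UMIs as CPM divided by 1000 (vertical) of 7 genes in mast-side cells and 7 genes in basophil-side cells with Gata2, by lane, grey for isotype and orange for anti-CD40; larger points hold more cells. Isotype and anti-CD40 lanes overlap for all genes shown, and lanes with 1 to 3 cells lie at many of the extremes.

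At the edge of the rule, 7 gated cells had exactly 3 gate UMIs, and all 7 had a Gata2 UMI. Just outside, 11 barcodes had 2 gate UMIs, and 8 of these had Gata2 while 9 had Gata2 or a mast protease. The highest gate sum was 86 and the median 11. A further 7 barcodes had 3 or more gate UMIs but were left out, 3 for Cd3d or Cd3e and 4 for C1q transcripts above the limit; the latter carried 61 or more C1q UMIs and 1 to 9 Gata2 UMIs. Outside the gate, 20 barcodes held 3 or more mast protease UMIs, and 3 of them held 10 or more.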

How the data were processed

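The 8 deposited matrices hold raw UMI counts per gene and barcode, with hashtag counts in further lines, per the file headers. Reads were processed by the authors with Cell Ranger 3.0.0 on mm10 after bcl2fastq 2.20.0.422, per the submitters' processing notes. Each matrix lists 32285 genes, and no row lacks a gene name. Summed UMIs of kept barcodes, in units of 1000000, were 43.6 to 91.9 per lane.

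The gate, its sides and the levels were computed in Python 3.11.15 with SciPy 1.17.1. The members and gene lists were chosen with earlier results of these data known. Hashtags were assigned with a Gaussian mixture (scikit-learn 1.9.0; posterior at least 0.9, at least 20 counts), tested on simulated data. Barcodes with 2 hashtags over 2.5 SD above background were marked as doublets (9.57% of kept barcodes) but not removed, and no other doublet caller was run. Shares were tested over pools by exact permutation, and Benjamini-Hochberg adjusted over 3 tests; the third, on the basophil-side share, has a single anti-CD40 pool and is given as a value only. Replicates are pools of mice, and the labels call the lanes of control tumours with anti-CD40 technical replicates.

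Expression between treatments was to be tested on pool sums with at least 20 gated cells, which no pool held, so that no fit was made. A ratio against a set at 0 used 3 UMIs as its floor. Named were the gate genes, listed genes, the 20 genes highest in gated over other cells among those detected in at least 25% of gated cells, and the 10 highest for each side. RefSeq windows and positions are of GRCm38.p6, the assembly that mm10 names.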

Additional observations from a re-analysis of the deposited data

How the results depend on the processing

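For the 3 comparisons of shares, no alternative moved a p-value across 0.05, which the stratified permutation over pools cannot reach; mice as units can, and gave 0.781 and 0.917 (exact permutation). The anti-CD40 difference was negative in all 19 alternatives run, 3 of them added after seeing the data, from -0.0607 to -0.00503 (mast side alone). It ranged from -0.0607 to -0.0308 percentage points with 1 lane left out and was -0.0151 with at least 5 gate UMIs. The difference between B2m-null and control pools turned to -0.00256 percentage points for the basophil side alone, an alternative added after seeing the data; the cause was not tested. It was 0.0120 with at least 5 gate UMIs, 0.0142 with at least 2 and 0.0124 over barcodes with a Ptprc UMI. Over barcodes of at least 1500 UMIs, thinned to that depth, it was 0.000761 and the anti-CD40 difference was -0.0107. With 1 lane left out the difference between B2m-null and control pools ranged from 0.0153 to 0.0469. The basophil-side difference, which has 1 anti-CD40 pool and is no test of treatment, ranged from -34.9 to -16.0 percentage points with 1 lane left out and was -17.1 without basophil-side cells lacking Gata2. Exact permutation within the replicate block gave differences of -0.0383 (p = 0.222) for anti-CD40 and 0.0216 (p = 0.611) for the tumour type, and left the basophil-side difference at -25.5. The numbers name separate pools, and no other link between them is given, so the block pairs lanes by number only. Not run, for want of cells, were the basophil-side share with at least 5 gate UMIs, with thinned cells or without replicate 1 of B2m-null tumours with anti-CD40, and alternative settings for expression other than leaving out 1 lane. No change in share, of any size, could pass 0.05 in that permutation over 7 pools, and the only other test run over pools was that within the replicate block. Leaving out 1 lane for gene levels, cell counts and list counts was chosen after seeing the data. Most moves of over 1.5 times are given beside the genes concerned, but not all of those of list counts. Not repeated there are counts of 1 to 5 cells in the 17 or 35, other than those of Kit, Slc18a2 and Cd74, many of which go to 0 or change by more than that without 1 lane.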
